A study of Oryza sativa Indica Group and Oryza sativa Japonica Group with 20 samples.

Results

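The H3K27me3 landscape of rice meiocytes was compared between the cultivar IR64 and the cultivar Azucena, from the 4 peak lists of meiocyte H3K27me3 among the 20 samples of the series. The lists were chosen by antibody and cell type as labelled, with no measured value, and together held 57748 of the 187445 peaks in the 8 meiocyte lists of both histone marks. IR64 (Indica Group) gave 2 libraries and Azucena (Japonica Group) gave 2, all labelled wild type. Meiocytes in prophase of the first meiotic division were pushed out of anthers with capillary pipettes, and chromatin was profiled by CUT&Tag, in which an antibody directs a transposase to the marked chromatin. The 4 meiocyte libraries of H3K4me3, 2 of IR64 and 2 of Azucena, served to compare the marks. The labels do not state whether the replicates are separate plants, and a p-value below therefore covers the spread of 2 libraries per cultivar, possibly only technical spread. No gene annotation of these assemblies was used, so the meiocyte label was not checked against marker genes and no gene is named.

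H3K27me3 is the trimethylation of lysine 27 of histone H3. It is deposited by Polycomb repressive complex 2, a methyltransferase complex that keeps developmental genes silent in cells that do not need them. In plants the mark typically covers single genes or short runs of neighbouring silent genes in the gene-rich parts of chromosomes, and it is sparse in heterochromatin rich in transposable elements. H3K4me3, in contrast, marks the promoters of transcribed genes. A library measures many cells at once, so fewer cells carrying the mark at a site and a weaker mark in each cell cannot be told apart.

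The IR64 lists were shorter and came from thinner coverage, although 1 of their libraries had the most reads. The authors' deposited table gave 47.91 and 9.0 M uniquely aligned reads (in units of 1000000 reads) for IR64 replicates 1 and 2, and 10.11 and 10.28 M for Azucena. The lists held 12629 and 10134 peaks in IR64, against 17362 and 17623 in Azucena. Called peaks covered 9.44 and 7.48 Mb in IR64, against 16.4 and 16.1 Mb in Azucena, on chromosomes that ended at a summed 387.7 Mb in IR64 and 379.3 Mb in Azucena when each was taken to its last called base. The read coverage at peak summits, recovered from the fold enrichment and p of each peak, had a median of 24 and 23 reads in IR64, against 51 and 51 in Azucena. The most frequent background coverage of the peaks, recovered the same way and taken as genome-wide, was 2.4 and 1.85 reads in IR64, against 6.08 and 5.9 in Azucena. It was shared by 19.7% and 12.8% of the peaks in IR64, against 17.1% and 16.9% in Azucena. All 4 lists reached down to the same threshold, with a lowest −log10 q between 2.01 and 2.03. With 2 libraries against 2 the exact permutation test has 6 relabellings and cannot give a p below 0.333, so each width or cluster difference below was judged by whether the libraries of the cultivars overlapped.

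H3K27me3 peaks were narrower in IR64. The median width was 611 and 631 bp in IR64, against 786 and 765 bp in Azucena. The means were 621 ± 14.1 and 775.5 ± 14.8 bp (SD, n = 2 each), a ratio of 0.801, and the groups did not overlap (two-sided exact permutation p = 0.333, the smallest possible, and 0.376 after Benjamini-Hochberg adjustment over 44 measures). In the full lists the relative gap between the cultivars was wider at the broad end of the distribution than at the narrow end. The 10th percentile was 329 and 332 bp in IR64, against 341 and 338 bp in Azucena, a ratio of 0.974. The 90th percentile was 1365 and 1313 bp in IR64, against 1768 and 1699 bp in Azucena, a ratio of 0.772. Peaks over 2 kb made up 1.56% and 1.02% of the lists in IR64, against 5.80% and 5.10% in Azucena. These broad peaks held 4.86% and 3.15% of the called bases in IR64, against 14.9% and 13.3% in Azucena. The broadest peak was 3801 and 3354 bp in IR64, against 4530 and 4133 bp in Azucena, and no library had a peak over 5 kb. The 90th percentile relative to the median overlapped between the cultivars, at 2.23 and 2.08 in IR64 and 2.25 and 2.22 in Azucena.

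**Figure D1:**
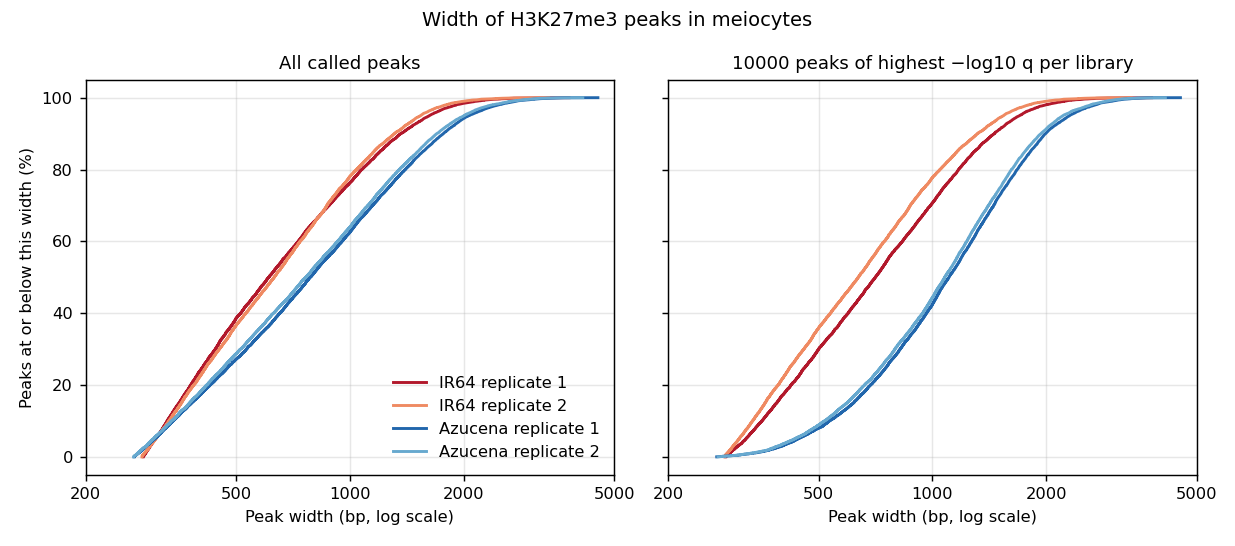
Cumulative share of H3K27me3 peaks (percent) at or below each width (bp, log scale), 1 curve per library, for all called peaks (left) and for the 10000 peaks of highest −log10 q per library (right). Both IR64 curves lie left of both Azucena curves at the medians, 611 and 631 bp against 786 and 765 bp in all peaks, and further left among the 10000 highest peaks, 707 and 637 bp against 1107 and 1078 bp.

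The narrower IR64 peaks were present on every chromosome. On all 12 chromosomes both IR64 medians lay below both Azucena medians (100% of the chromosomes compared, without overlap). Medians per chromosome ran between 580 and 651 bp in IR64 replicate 1 and between 603 and 660 bp in IR64 replicate 2, against 749.5 to 823 bp in Azucena replicate 1 and 713 to 803 bp in Azucena replicate 2. Position along the chromosome moved the width little. In the middle 10 of 20 equal bins of each chromosome the median was 601 and 641 bp in IR64, against 802 and 789 bp in Azucena. In the outer 4 bins, 2 at each end, it was 631 and 625 bp in IR64, against 785.5 and 757 bp in Azucena.

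Lists of equal length gave a larger difference than the full lists, but the cut was uneven. It kept 10000 of the 12629 and 10134 peaks in IR64, against 10000 of 17362 and 17623 in Azucena. More of the weaker peaks were thus removed from the Azucena lists, and peaks of lower rank were narrower in every library. How much of the larger difference came from the cut was not tested. Among the 10000 peaks of highest −log10 q in each library, the median width was 707 and 637 bp in IR64, against 1107 and 1078 bp in Azucena. The means were 672 ± 49.5 and 1092.5 ± 20.5 bp (SD, n = 2 each), a ratio of 0.615, without overlap (exact permutation p = 0.333, adjusted 0.419 over 44 measures). Unlike in the full lists, the relative gap was narrower at the broad end, with a ratio of 0.654 at the 10th percentile, 0.592 at the 25th, 0.706 at the 90th and 0.723 at the 99th. The 90th percentile relative to the median was 2.06 and 2.07 in IR64, against 1.80 and 1.80 in Azucena, without overlap. Peaks over 2 kb were 1.97% and 1.03% of these peaks in IR64, against 9.83% and 8.75% in Azucena. At equal rank the ratio was nearest to 1 among the strongest peaks. Ranks 1 to 1000 had median widths of 994.5 and 994 bp in IR64, against 1442.5 and 1394 bp in Azucena, a ratio of 0.701. Ranks 5001 to 10000 had 560 and 473 bp in IR64, against 909.5 and 884 bp in Azucena, a ratio of 0.576. Equal rank did not mean equal strength of evidence, since the 10000th peak had a −log10 q of 4.51 and 2.58 in IR64, against 9.65 and 10.3 in Azucena.

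The same direction was seen among peaks of equal fold enrichment, the ratio of summit coverage to local background that the authors' lists gave for each peak. At a fold of 4 to 6 the median width was 721 and 715 bp in IR64, against 1156 and 1087 bp in Azucena, a ratio of 0.640, the lowest of the 5 classes. At a fold of 3 to 4 the ratio was 0.712, and at 6 to 10 it was 0.728. The cultivars lay closest at a fold under 3, with 482 and 479 bp in IR64 and 518 and 487 bp in Azucena, a ratio of 0.956. The rare peaks of fold 10 and over were short in all 4 libraries, at 512 and 504.5 bp in IR64 and 589 and 605.5 bp in Azucena. None of the 5 classes overlapped between the cultivars in the full lists (exact permutation p = 0.333 each). Among peaks with a −log10 q of at least 5 the ratio at a fold of 3 to 4 was 0.930, and the class under 3 overlapped. That class also overlapped among peaks found in both replicates. The full lists also differed in how their peaks spread over these classes: a fold under 3 was given to 15.9% and 13.5% of the peaks in IR64, against 35.4% and 31.7% in Azucena.

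Peaks of equal summit coverage did not show the same direction. This comparison was chosen after the data were seen. Among peaks with 15 to 19 reads at the summit the median width was 501 and 571 bp in IR64, against 367.5 and 355 bp in Azucena, a ratio of 1.48. Equal coverage was not equal fold there. A fold of 4 to 6 was given to 1648 and 1108 of these peaks in IR64, and 3 to 4 to 677 and 477. Azucena had 0 peaks in either fold class, of 526 and 556, so this ratio could not be matched for fold. Among peaks with 20 to 29 reads at the summit the median width was 660.5 and 709 bp in IR64, against 485 and 465 bp in Azucena, a ratio of 1.44. With 30 to 39 reads it was 811.5 and 800 bp in IR64, against 685.5 and 671.5 bp in Azucena, a ratio of 1.19. In all 3 classes the IR64 libraries lay above the Azucena libraries. With 40 to 59 reads the libraries overlapped, at 876 and 831.5 bp in IR64 and 851 and 824.5 bp in Azucena (exact permutation p = 0.667). With 60 to 99 reads the median was 854 and 924 bp in IR64, against 1008 and 980.5 bp in Azucena, a ratio of 0.894. With 100 reads and over it was 795.5 and 752 bp in IR64, against 1275 and 1240 bp in Azucena, a ratio of 0.615. When coverage and fold were matched together, the ratio within a fold of 4 to 6 was 1.23 at 20 to 29 reads, 1.28 at 30 to 39 reads, 1.02 with overlap at 40 to 59 reads and 0.807 at 60 to 99 reads. Within a fold of 3 to 4 it was 1.16 at 20 to 29 reads, 1.07 with overlap at 30 to 39 reads, 1.03 with overlap at 40 to 59 reads and 0.894 at 60 to 99 reads. The narrower peaks of IR64 therefore held at equal list length and rank, and at equal fold in the full lists. They did not hold at equal summit coverage under 60 reads, and the part that coverage had in the difference was not tested. Peaks with under 15 reads at the summit occurred in the IR64 lists alone, 2073 and 2180 of them with medians of 404 and 425 bp, against 0 in each Azucena list.

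**Figure D2:**
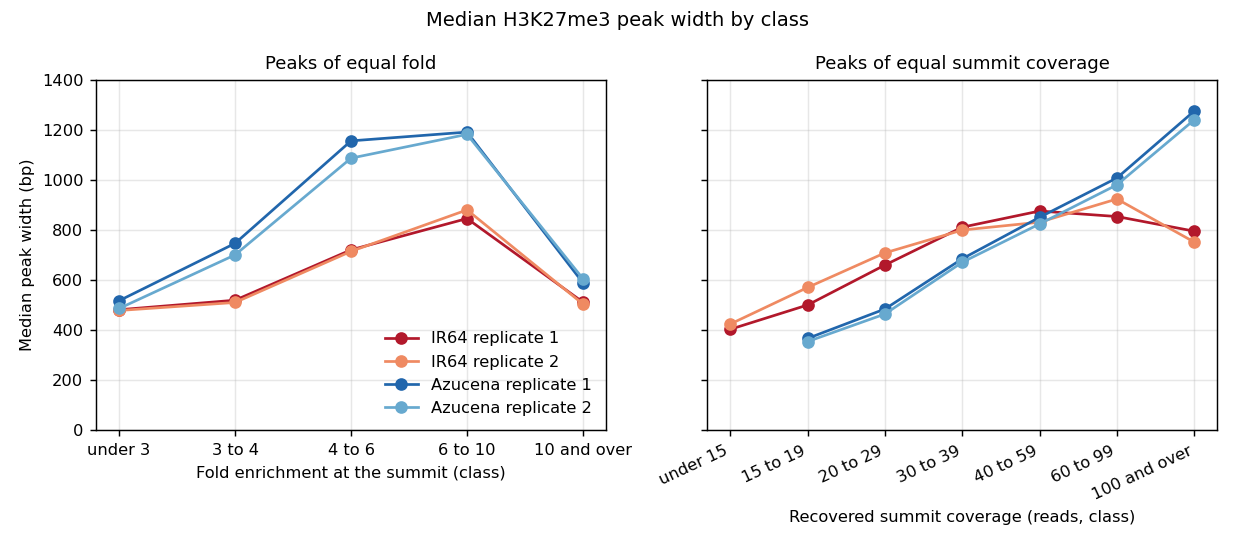
Median width (bp) of H3K27me3 peaks by fold enrichment class (left) and by recovered summit coverage in reads (right), 1 line per library. IR64 lies below Azucena in every fold class, while by coverage IR64 lies above Azucena at 15 to 39 reads, overlaps it at 40 to 59 reads and lies below it from 60 reads on.

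Peaks called in a single replicate were short in both cultivars. They made up 33.9% of the list of IR64 replicate 1 and 16.3% of that of IR64 replicate 2, against 12.5% and 12.6% in Azucena. Their median width was 407 and 391 bp in IR64, against 363 and 364.5 bp in Azucena, and none was over 2 kb. Among the peaks found in both replicates, a comparison added after the data were seen, the median was 790 and 704 bp in IR64, against 884 and 858 bp in Azucena, a ratio of 0.858 without overlap.

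In the full lists IR64 peaks stood more often alone. Peaks of a library were joined into clusters where the gap between them was at most 5 kb. Peaks without such a neighbour were 54.5% and 57.7% of the list in IR64, against 36.6% and 35.5% in Azucena, a ratio of the means of 1.56. Clusters of 5 or more peaks held 3.75% and 2.01% of the peaks in IR64, against 11.2% and 11.5% in Azucena. There were 73 and 35 such clusters in IR64, against 319 and 337 in Azucena. Clusters spanning over 10 kb numbered 118 and 62 in IR64, against 441 and 446 in Azucena, and peaks filled 26.6% and 25.8% of their length in IR64, against 31.3% and 30.8% in Azucena. The median gap to the nearest peak was 5752 and 6511 bp in IR64, against 2672 and 2520.5 bp in Azucena, a ratio of 2.36. None of these 6 measures overlapped between the cultivars (exact permutation p = 0.333 each, adjusted 0.376).

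Most of the difference in clustering was absent from lists of equal length. Among the 10000 highest peaks, 62.6% and 58.3% stood alone in IR64, against 57.5% and 58.1% in Azucena, a ratio of 1.05. Clusters of 5 or more peaks held 2.76% and 1.93% of the peaks in IR64 and 2.63% and 2.34% in Azucena, and the libraries overlapped (exact permutation p = 1.0). The median gap was 7821 and 6596.5 bp in IR64 and 6504 and 6723 bp in Azucena, again with overlap (exact permutation p = 0.667). The length of the clusters stayed apart: the 90th percentile of the span was 3649 and 3774 bp in IR64, against 5257 and 5076 bp in Azucena. Clusters over 10 kb numbered 77 and 60 in IR64, against 133 and 127 in Azucena. The longest cluster went the other way, with 49.8 and 56.6 kb in IR64 against 31.2 and 31.2 kb in Azucena. Among the peaks with a fold of at least 4, of which the lists held 6523 and 5597 in IR64 and 5916 and 6605 in Azucena, 87.5% and 88.2% stood alone in IR64 and 89.6% and 88.1% in Azucena, with overlap.

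**Figure D3:**
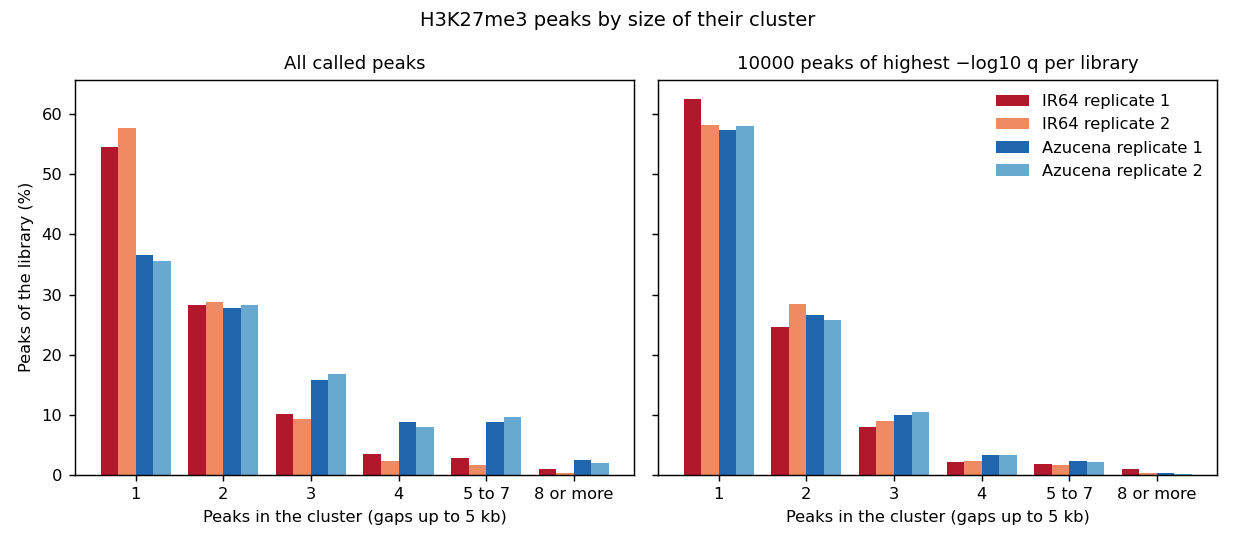
Share of each library's H3K27me3 peaks (percent) by the number of peaks in their cluster (gaps up to 5 kb), for all called peaks (left) and the 10000 peaks of highest −log10 q (right), 1 bar per library. Lone peaks are 54.5% and 57.7% in IR64 against 36.6% and 35.5% in Azucena on the left, and 62.6% and 58.3% against 57.5% and 58.1% on the right.

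The clusters seen in both replicates of a cultivar are given by position, 1-based, in the coordinates of that cultivar's own lists, whose build was not given in the sources used here. Regions called in both replicates numbered 8219 in IR64, in 6675 clusters, against 14872 in Azucena, in 9570 clusters. Clusters of 5 or more such regions numbered 19 in IR64, against 208 in Azucena, and the longest spanned 21062 bp in IR64, against 65222 bp in Azucena. These numbers come from lists of unequal length. Among the 10000 highest peaks of single libraries, clusters of 5 or more peaks numbered 41 and 33 in IR64, against 47 and 42 in Azucena. The longest cluster was then longer in IR64. The IR64 cluster with the most called bases lay near the middle of chromosome 5 (chr5:14778468-14799529), with 7.62 kb called in 6 regions, and both replicates had 7 peaks there. The next lay on chromosome 6 (chr6:12308369-12326138, 6.71 kb called), chromosome 4 (chr4:14034466-14048069, 6.71 kb) and chromosome 3 (chr3:6128100-6144828, 6.50 kb). The fifth lay at 99.5% of the length of chromosome 12 (chr12:25711972-25722700, 6.42 kb), where replicate 1 had 6.89 kb called and replicate 2 had 3.76 kb.

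The Azucena cluster with the most called bases lay at 77.9% of the length of chromosome 1 (chr1:34220351-34285572), spanned 65.2 kb and held 18 regions with 19038 called bases, with 21 and 20 peaks in the replicates. The next lay on chromosome 4 (chr4:31534156-31565396, 12011 bases called), chromosome 8 (chr8:402427-431834, 10811 bases), chromosome 3 (chr3:12047854-12073737, 10576 bases) and chromosome 12 (chr12:25102527-25137353, 10313 bases). The peaks within these 10 clusters were of modest fold, with medians per library between 1.58 and 3.21. Whether a cluster of one cultivar corresponds to one of the other was not analysed here, since the assemblies differ.

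A cluster of IR64 replicate 1 stood out and was singled out after its values were seen. It lay on chromosome 11 (chr11:12767217-12846228), spanned 79.0 kb and held 31 peaks with a median fold of 1.99 at a median summit coverage of 110 reads. IR64 replicate 2 had 8 peaks there, with 4.63 kb called against 20.7 kb in replicate 1. The longest cluster of IR64 replicate 2 began at the left end of chromosome 9 (chr9:3561-60206, 56.6 kb, 14 peaks), where replicate 1 had 8 peaks with 14.4 kb called, against 16.2 kb in replicate 2.

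Along the chromosomes the cultivars were broadly alike. Each chromosome was divided into 20 equal bins, and the relative density of a bin is its number of peaks over the mean number per bin of the same library. The outer 4 bins of the chromosomes held 23.7% and 24.6% of the peaks in IR64 and 24.2% and 24.2% in Azucena, with overlap (exact permutation p = 1.0). The middle 10 bins held 45.1% and 43.5% in IR64, against 42.1% and 41.8% in Azucena, without overlap. The groups overlapped in this share among peaks with a fold of at least 4, at 48.3% and 47.0% in IR64 and 48.3% and 47.7% in Azucena. The Gini coefficient of the 240 bins, which is 0 for an even spread, was 0.206 and 0.254 in IR64, against 0.261 and 0.263 in Azucena, so IR64 replicate 1 was the most even of the libraries. The peaks that IR64 replicate 1 had alone were also the most central, with 47.7% in the middle 10 bins, against 43.7% of its peaks found in both replicates.

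Averaged over the 12 chromosomes, 16 of the 20 relative positions did not overlap between the cultivars (80%), with IR64 higher at 6 (30%) and lower at 10 (50%). The largest ratio lay left of the middle. Bin 8 had a relative density of 0.862 and 0.774 in IR64, against 0.635 and 0.634 in Azucena. The last bin had 1.43 and 1.52 in IR64, against 1.30 and 1.33 in Azucena. Bin 19 next to it had 1.06 and 1.13 in IR64, against 1.21 and 1.21 in Azucena.

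Pearson's r between profiles over the 240 bins describes how alike they were. The bins of a library share its depth, and the relative positions of the cultivars come from different assemblies. The r was 0.944 between the IR64 replicates and 0.990 between the Azucena replicates. Between the cultivars it ran from 0.822 to 0.866 for H3K27me3, against 0.960 to 0.964 for H3K4me3 over the same bins. These values come from full lists, and the H3K4me3 lists together held more peaks. Among the 10000 highest peaks per library the marks lay closer, at 0.787 to 0.873 for H3K27me3 against 0.884 to 0.893 for H3K4me3. Within single chromosomes of the full lists the H3K27me3 r between the cultivars was lowest on chromosome 11, at 0.567, followed by 0.684 on chromosome 6, 0.748 on chromosome 10 and 0.759 on chromosome 12. It was highest on chromosome 1, at 0.948. The H3K4me3 r was also lowest on chromosome 11, at 0.858.

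**Figure D4:**
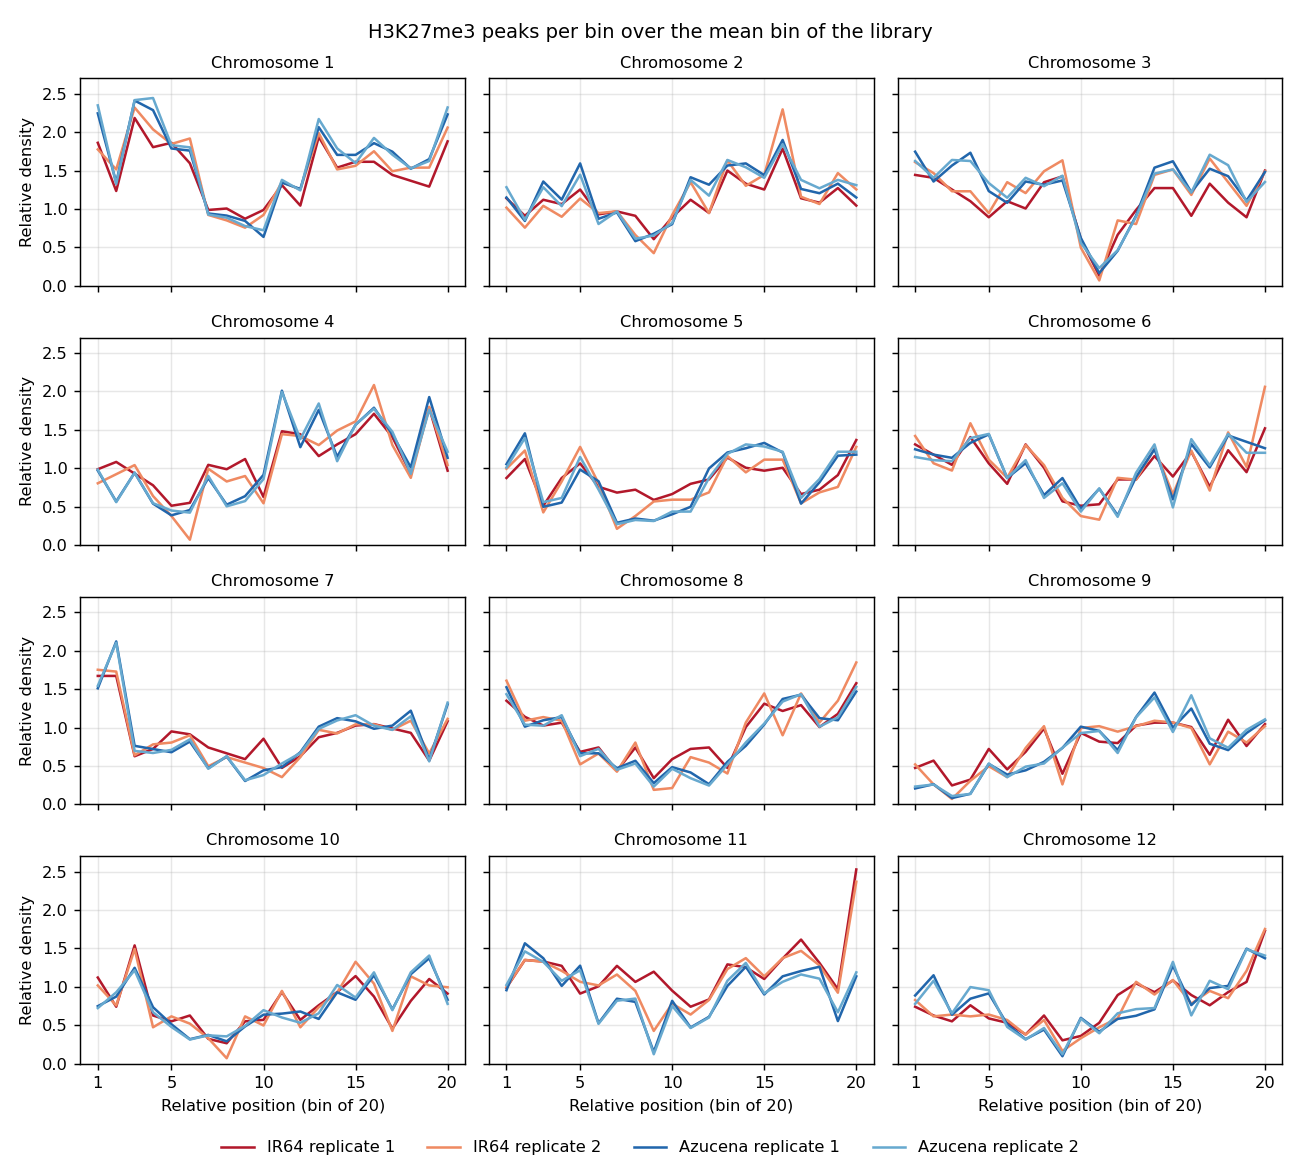
Relative density of H3K27me3 peaks (peaks of a bin over the mean bin of the library) along the 12 chromosomes in 20 equal bins, 1 line per library. The 4 lines run together on chromosome 1 (r = 0.948 between the cultivars), while on chromosome 11 (r = 0.567) both IR64 lines lie above both Azucena lines at bins 6 to 9 and reach 2.53 and 2.37 at bin 20, against 1.14 and 1.19.

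The bins that differed were found with limma on log2(relative density + 0.1), with p-values adjusted over all 240 bins, so a log2 difference understates the change in sparse bins. The test called 65 of 240 bins (27.1%), 40 with IR64 higher (16.7%) and 25 with IR64 lower (10.4%). Of the 40 bins with IR64 higher, 28 lay in the middle 10 of the 20 bins of a chromosome, against 9 of the 25 with IR64 lower. Middle bins are 10 of every 20 among all 240, and whether these counts depart from that share was not tested. The share of all peaks in the middle 10 bins was higher in IR64 in the full lists and among the 10000 highest peaks, without overlap. It overlapped at a fold of at least 4 and among the 5000 highest peaks. Chromosome 11 had 10 bins with IR64 higher and 0 with IR64 lower, and chromosome 8 had 5 and 0. Chromosome 3 had 1 and 3, and chromosome 6 had 2 and 4. Groups without overlap were much more common than calls, at 173 of 240 bins (72.1%), 83 with IR64 higher (34.6%) and 90 with IR64 lower (37.5%). The difference was 0.22 on the log2 scale at the median bin, in absolute size, and 0.48 at the median called bin.

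Among the named bins with IR64 higher, bin 12 of chromosome 6 had a relative density of 0.855 and 0.876 in IR64, against 0.388 and 0.369 in Azucena. Its log2 difference was 1.01 ± 0.067 (SE, adjusted p = 0.00481 by limma). It spans 17842995 to 19465084 of chromosome 6 in IR64 and 17153965 to 18713416 in Azucena. The last bin of chromosome 11 was the densest bin of the genome in both IR64 libraries, at 2.53 and 2.37, against 1.14 and 1.19 in Azucena (log2 difference 1.01 ± 0.073, adjusted p = 0.00481 by limma). It spans 30199922 to 31789391 in IR64 and 28659236 to 30167616 in Azucena. Even without scaling to the list, this bin held more peaks per Mb in the shorter IR64 lists, at 83.7 and 62.9, against 54.4 and 57.7 in Azucena. Bin 6 of chromosome 11 had 1.01 and 1.02 in IR64, against 0.527 and 0.519 in Azucena (log2 difference 0.84, adjusted p = 0.00481 by limma).

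The other 3 named bins with IR64 higher lay on the left part of chromosome 9. Bin 1 had 0.475 and 0.521 in IR64, against 0.208 and 0.232 in Azucena. Bin 4 had 0.323 and 0.308 in IR64, against 0.139 and 0.137 in Azucena, and bin 8 had 0.988 and 1.02 in IR64, against 0.555 and 0.533 in Azucena. The log2 differences were 0.90, 0.81 and 0.78, with an adjusted p of 0.00481 by limma for each. Bins 1 and 4 rest on few peaks, 25 and 22 in bin 1 in IR64 against 15 and 17 in Azucena, and 17 and 13 in bin 4 in IR64 against 10 and 10 in Azucena. Bin 1 contains the long cluster of IR64 replicate 2 (chr9:3561-60206). That stretch supplied 8 of the 25 peaks of IR64 replicate 1 and 14 of the 22 of replicate 2. The difference of bin 1 without this cluster was not tested. Bin 4 turned to a log2 difference of −0.28 among the 5000 highest peaks.

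The named bins with IR64 lower lay on chromosomes 4, 10 and 12. Bin 2 of chromosome 12 had 0.627 and 0.616 in IR64, against 1.15 and 1.08 in Azucena (log2 difference −0.75, adjusted p = 0.00481 by limma). It spans 1291612 to 2583223 in IR64 and 1371988 to 2743975 in Azucena, near the left end of the chromosome. Bin 10 of the same chromosome had 0.361 and 0.332 in IR64, against 0.596 and 0.587 in Azucena (−0.63, adjusted p = 0.00833 by limma). Bin 5 had 0.589 and 0.639 in IR64, against 0.915 and 0.956 in Azucena (−0.54, adjusted p = 0.0135 by limma). Chromosome 12 also had the next-to-last bin lower in IR64, at 1.06 and 1.21 against 1.50 and 1.49, and the last bin higher, at 1.73 and 1.75 against 1.37 and 1.41. The last called base of this chromosome lay at 25.8 Mb in IR64 and 27.4 Mb in Azucena, with bins of 1.29 and 1.37 Mb. Its bins therefore need not hold the same sequence in both cultivars, and a displacement of their borders was not tested.

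Bin 17 of chromosome 10 had 0.456 and 0.426 in IR64, against 0.707 and 0.697 in Azucena (log2 difference −0.57, adjusted p = 0.0108 by limma), and turned to 0.14 among the 5000 highest peaks. On chromosome 4, bins 11 and 13 were among the dense ones in both cultivars. Bin 11 had 1.48 and 1.44 in IR64, against 2.01 and 1.99 in Azucena (−0.43, adjusted p = 0.0174 by limma), but 0.02 among peaks with a fold of at least 4. Bin 13 had 1.16 and 1.30 in IR64, against 1.76 and 1.84 in Azucena (−0.52, adjusted p = 0.0185 by limma).

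Lists of equal length gave 49 called bins of 240 (20.4%), 32 with IR64 higher (13.3%) and 17 with IR64 lower (7.08%). Of the 65 bins called in the full lists, 39 were called again in the same direction and 0 in the opposite direction. All 65 kept the sign of their difference. The lists of equal length were cut from the full lists, so these counts are not independent of how the 65 were called. How often the sign was kept over all 240 bins was not counted. Bin 4 of chromosome 9 (adjusted p = 0.0732) and bin 2 of chromosome 12 (adjusted p = 0.0633) were no longer called by limma in the lists of equal length. The calls rested on both Azucena libraries, whose replicates lay close together. Without Azucena replicate 1 limma called 0 bins, with 49 at an unadjusted p under 0.05, and without Azucena replicate 2 it called 0, with 50 at that level. Without IR64 replicate 1 it called 69 bins with IR64 higher and 68 lower, and without IR64 replicate 2 it called 74 and 71.

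The same bins were then set against H3K4me3, whose lists use the same assemblies, so that a shift of relative positions between the assemblies enters both marks. Such a shift need not change both marks by the same amount, so the comparison addresses it only in part. The interaction in limma, which is the difference between the cultivars in H3K27me3 minus that in H3K4me3, was called in 65 of 240 bins (27.1%), 31 toward IR64 (12.9%) and 34 away from it (14.2%). Of the 65 bins called for H3K27me3 alone, 40 also had a called interaction in the same direction, 20 with IR64 higher and 20 with IR64 lower. The H3K27me3 difference is a term of the interaction, so this count is not independent of how the 65 were called. The same holds for the named bins below. The H3K4me3 difference had the same sign as that of H3K27me3 in 47 of the 65. Equal signs were not counted over all 240 bins, so this number does not tell whether the called bins differ from the rest. At the median bin the absolute log2 difference between the cultivars was 0.22 in H3K27me3, against 0.10 in H3K4me3. Both medians come from full lists, and list length was not matched between the marks.

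Of the 12 named bins, 9 had a called interaction in the direction of their H3K27me3 difference. Bins 4 of chromosome 9 and 6 of chromosome 11 had interactions of 0.96 and 0.91, each with an adjusted p of 0.000289 by limma. H3K4me3 in bin 6 of chromosome 11 was 0.569 and 0.541 in IR64 and 0.580 and 0.594 in Azucena. Bin 20 of chromosome 11 had an interaction of 0.64 (adjusted p = 0.0022 by limma), beside an H3K4me3 density of 0.972 and 0.954 in IR64 against 0.699 and 0.741 in Azucena. In bin 12 of chromosome 6 the interaction was 0.37 (adjusted p = 0.00677 by limma), and H3K4me3 was itself 0.666 and 0.683 in IR64 against 0.397 and 0.394 in Azucena. Bin 2 of chromosome 12 had an interaction of −0.70 (adjusted p = 0.00109 by limma), with H3K4me3 at 1.19 and 1.22 in IR64 and 1.24 and 1.26 in Azucena. The interaction was not called in bin 8 of chromosome 9 (0.25, adjusted p = 0.0586), bin 5 of chromosome 12 (−0.11, adjusted p = 0.338) or bin 11 of chromosome 4 (0.11, adjusted p = 0.176).

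**Figure D5:**
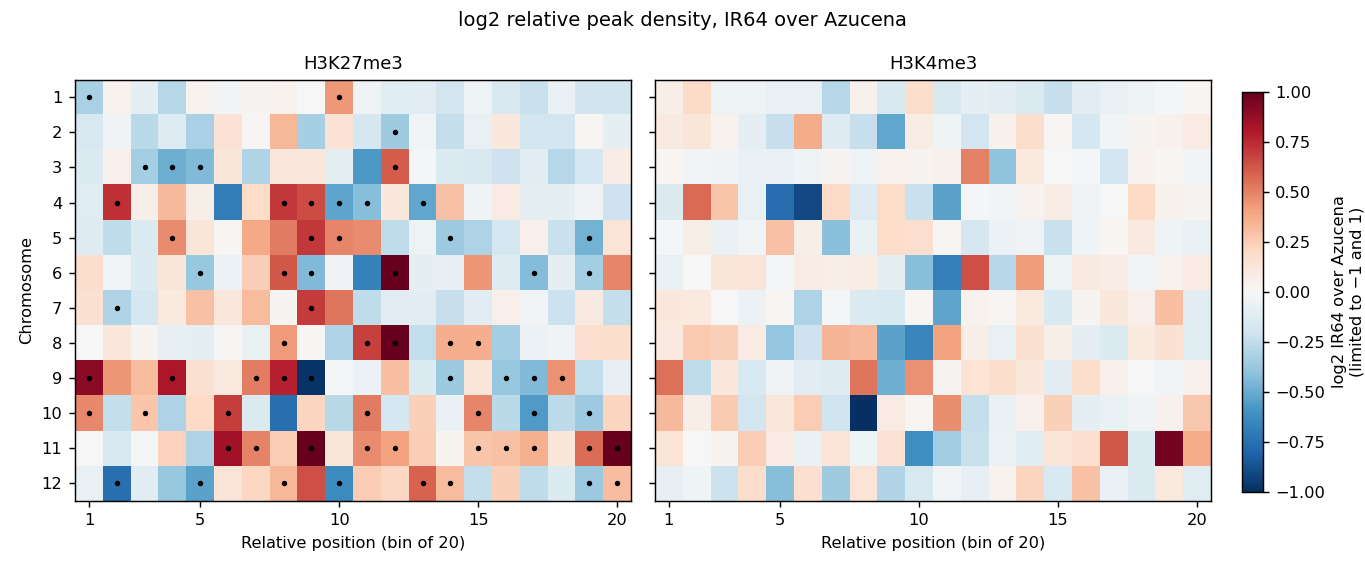
Difference in relative peak density, IR64 over Azucena (log2, colours limited to −1 and 1), in 20 bins of each of 12 chromosomes, for H3K27me3 (left) and H3K4me3 (right). Red is higher in IR64, blue is lower in IR64, and dots mark the 65 H3K27me3 bins called by limma, of which 10 lie on chromosome 11, all of them red.

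Chromosome 11 carried more of the H3K27me3 peaks in IR64. Its share of the peaks over its share of the length was 1.24 and 1.16 in IR64, against 0.989 and 0.981 in Azucena. The log2 difference was 0.29 ± 0.036 (SE, adjusted p = 0.0125 by limma over 12 chromosomes), 0.28 among the 10000 highest peaks and 0.26 in called bases. Limma called 2 of 12 chromosomes (16.7%), 1 with IR64 higher and 1 with IR64 lower (8.33% each). The other was chromosome 2, at 0.969 and 0.987 in IR64 against 1.05 and 1.04 in Azucena (−0.10 ± 0.020, adjusted p = 0.0423 by limma). Among the 10000 highest peaks limma called 4 chromosomes (33.3%), chromosome 11 with IR64 higher (8.33%) and chromosomes 1, 2 and 3 with IR64 lower (25%). In called bases it called 8 (66.7%), 5 with IR64 higher (41.7%) and 3 with IR64 lower (25%). Without either Azucena library 0 of 12 chromosomes were called by limma, with 1 at an unadjusted p under 0.05, and without IR64 replicate 1 or 2 there were 10 and 8. H3K4me3 on chromosome 11 was 0.810 and 0.807 in IR64 and 0.770 and 0.778 in Azucena.

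The excess on chromosome 11 was spread over several stretches. The last called base of this chromosome lay at 31.8 Mb in IR64 and 30.2 Mb in Azucena, and the effect of this on its bins was not tested. Bins 6 to 12 held 2.95% and 2.42% of all peaks of the library in IR64, against 1.76% and 1.72% in Azucena. The last 2 bins held 1.46% and 1.37% in IR64, against 0.705% and 0.774% in Azucena. The remaining 11 bins held 5.75% and 5.75% in IR64, against 5.40% and 5.31% in Azucena. Bin 9, which contains the long cluster of IR64 replicate 1, had a relative density of 1.20 and 0.426 in IR64, against 0.152 and 0.123 in Azucena. Its log2 difference of 1.80 ± 0.43 was called by limma (adjusted p = 0.0365), its interaction of 1.65 was not (adjusted p = 0.053), and the IR64 replicates differed more from each other there than in any other bin of that chromosome. The other chromosomes with an adjusted p above 0.05 in the full lists had log2 differences between −0.12 on chromosome 3 and 0.07 on chromosome 8.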

How the data were processed

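Meiocytes of IR64 and Azucena were profiled by CUT&Tag, with 1 peak list per library and 2 libraries per mark and cultivar, grouped by the sample titles. The deposited lists gave, per peak, a score equal to 10 times the −log10 q, the ratio of summit to background (fold enrichment), and both −log10 p and −log10 q, as the authors' caller wrote them. The authors' deposited table gave read and peak counts per library (reads in M, with the aligned percent). The submitters' processing notes list MACS2 2.1.0, Bowtie2, fastp 0.20.1 and Bismark 0.22.3 but give them no role. The build, any control library and any filter on duplicates are not given in the sources used here, and widths are those of called peaks in the narrow-peak format, which need not span a whole marked domain.

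From these lists were computed peak widths, clusters (gaps up to 5 kb) and peaks in 20 equal bins per chromosome from base 1 to the last called base, with pandas 2.3.3 on Python 3.11.15. Coordinates were not converted between cultivars, and peaks on unplaced contigs were left out of clusters and bins. Library measures were tested by two-sided exact permutation of the libraries, bins and chromosomes by limma 3.58.1 (R 4.3.3) with Benjamini-Hochberg adjustment at 0.05. Summit coverage was solved from fold and p, assuming a Poisson tail with 1 added to both terms of the fold. A whole number of reads gave the listed −log10 p within 0.01 in at least 99.9% of the peaks of each library. Two-library groups limit the precision of every test. The fits and this inversion were tested on simulated data.

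The named bins are up to 6 per direction with the lowest limma p among called bins without overlap and with the same sign in the 10000 highest peaks. The named clusters are the 5 per cultivar with the most called bases, counted over the joint extent of regions that both replicates called. These rules, the alternatives and the members were chosen with earlier results of these data known. Flag-leaf and bisulfite samples were not analysed here. Same-numbered libraries did not deviate together, so the main fits carry no block.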

Additional observations from a re-analysis of the deposited data

Results flagged for a closer look

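In 9 named bins the difference between IR64 and Azucena in H3K27me3 was itself different from that in H3K4me3, by the interaction in limma. The interaction (log2) was 0.96 in bin 4 and 0.35 in bin 1 of chromosome 9, 0.91 in bin 6 and 0.64 in bin 20 of chromosome 11, and 0.37 in bin 12 of chromosome 6. It was −0.70 in bin 2 and −0.47 in bin 10 of chromosome 12, −0.50 in bin 17 of chromosome 10 and −0.49 in bin 13 of chromosome 4. The bins were named for their H3K27me3 difference, which is a term of the interaction, so these values are not independent of that choice.

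Peaks outside the 12 chromosomes were present in the Azucena lists, with 50 in replicate 1 and 53 in replicate 2. They lay on unplaced contigs, which the IR64 lists do not name, and entered no bin or cluster.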

How the results depend on the processing

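Results were recomputed with 1 choice changed at a time, except that the called bases of the 10000 highest peaks changed both the measure and the list, which gave 589 values for 53 results. Of the values for the main measures and counts, 230 kept their direction or, for counts, lay within 1.5 times, 56 counts moved by over 1.5 times and 27 values reversed. The cause was not tested, except where stated.

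Narrower peaks in IR64 held with the other thresholds, list lengths, merged peaks and left-out libraries tried. The ratio of the median width (0.801) was 1.48 at a summit coverage of 15 to 19 reads, 1.44 at 20 to 29, 1.19 at 30 to 39 and 1.02 at 40 to 59, but 0.894 at 60 to 99 and 0.615 from 100 reads on, classes chosen after seeing the data. These classes were not matched for fold, and at 15 to 19 reads Azucena had 0 peaks with a fold of 3 to 4 or 4 to 6.

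Clustering depended on the list. With a fold of at least 4, the ratio, IR64 over Azucena, was 1.01 for peaks per cluster, 0.989 for the share of lone peaks and 0.987 for the gap to the nearest peak. Among the 5000 highest peaks, added after seeing the data, it was 1.02, 0.976 and 0.928, and 6.35 for the share in clusters of 5 or more peaks, since only 0.140% and 0.301% of the Azucena peaks were in such clusters. The ratio of the share of called bases in clusters over 10 kb was 1.64 with gaps up to 2 kb and 1.27 among the 5000 highest peaks. For the 10000 highest peaks, leaving out 1 library gave a ratio of 0.775 to 1.11 for the share in clusters of 5 or more peaks and 0.997 to 1.18 for the gap.

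The ratio of the share in the outer 4 bins (0.996) was 1.01 for the 10000 highest peaks, 1.02 at a −log10 q of at least 5, 1.05 at a fold of at least 4, 1.05 for the 5000 highest and 1.02 for peaks in both replicates, and leaving out 1 library gave 0.979 to 1.01. That of the middle 10 bins was 0.993 at a fold of at least 4 and 0.998 for the 5000 highest.

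The counts of called bins, 40 with IR64 higher and 25 lower, were 61 and 61 for called bases, 13 and 4 with 10 bins per chromosome, 69 and 56 with 40 bins, 14 and 8 at a fold of at least 4, and 20 and 11 for the 5000 highest peaks. The called bases of the 10000 highest peaks, added after seeing the data, gave 56 higher and 52 lower. Leaving out 1 library gave 0 to 74 higher and 0 to 71 lower; the smaller counts came without an Azucena library, when the spread came from the IR64 pair alone. For the interaction, 31 and 34, the counts were 62 and 62, 17 and 13, 74 and 67, 13 and 12, and 18 and 18 under the same 5 settings, with 16 lower for the 10000 highest peaks. Leaving out 1 library gave 17 to 77 higher and 11 to 79 lower. For chromosomes, 1 and 1, they were 5 and 3 for called bases and 4 and 2 at a −log10 q of at least 5, with 3 lower for the 10000 highest peaks. Leaving out 1 library gave 0 to 4 higher and 0 to 7 lower.

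Of 168 values for the named bins under the alternatives, 126 stayed called, 39 lost the call and 3 reversed. Of the lost calls, 24 came without an Azucena library, where the log2 differences moved by at most 0.055, and 15 under other settings. The reversed ones were −0.28 for bin 4 of chromosome 9 and 0.14 for bin 17 of chromosome 10 among the 5000 highest peaks, and 0.0155 for bin 11 of chromosome 4 at a fold of at least 4. Chromosome 5 went to −0.0395 without IR64 replicate 1 (without 1 library, −0.0395 to 0.0564), and chromosome 9 to 0.0597 in called bases.

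The replicate numbers of the labels name no shared plant or day, and deviations of same-numbered libraries correlated at 0.068, −0.063 and −0.056. With the replicate number as a block, limma called 36 bins with IR64 higher and 17 lower, 28 and 34 for the interaction, and 1 and 1 chromosomes. The chromosome with IR64 lower was then chromosome 3 (adjusted p = 0.0279 by limma, 0.191 without the block) and not chromosome 2 (0.0656, against 0.0423). Library ratios such as 0.801 for the median width stayed as they were, with a smallest exact p of 0.5. Peaks found in a single replicate had a median of 18 and 14 reads at the summit in IR64, against 26 and 25 in Azucena, and the effect of depth on the lists was not tested.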
